A study of Mus musculus with 25 samples.

Results

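The autosomal H3K9me3 peaks of mfn2-/- and vhl-/- regenerating myofibers were compared, 2 genotypes that both raise HIF1α activity by different routes. The comparison holds the 3 mfn2-/- and 3 vhl-/- H3K9me3 peak lists, restricted to chromosomes 1 to 19, which leaves 6576 of their 7323 peaks, out of 20998 H3K9me3 peaks and 55242 peaks in the 24 lists of the series. Mice of both groups carried Pax7-CreERT2, a tamoxifen-inducible recombinase expressed in muscle stem cells, together with the mito-Dendra2 reporter, which labels mitochondria in the progeny of those cells. The mfn2-/- group carried floxed Mfn2, which encodes mitofusin 2, an outer membrane protein needed for mitochondrial fusion, and the vhl-/- group carried floxed Vhl, which encodes the protein that targets HIF1α for degradation. Both received tamoxifen at 75 mg/kg a day for 5 days and then an injection of 50 µL of 1.2% BaCl2 into the tibialis anterior, and Dendra2+ myofibers were collected at 14 days post injury (dpi). Since Cre acts in muscle stem cells, the deletion concerns fibers that these cells rebuilt, and nuclei of other cells attached to a dissected fiber keep the intact allele. Lists from wild-type and HIF1dPA myofibers are quoted beside the comparison. These mice had the same tamoxifen, BaCl2 and day of collection. HIF1dPA mice express, through the same Cre driver, a HIF1α mutant that VHL does not recognize.

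H3K9me3, trimethylation of a lysine in the tail of histone H3, marks constitutive heterochromatin and is written by enzymes such as SETDB1 and the SUV39H pair. It is bound by HP1 proteins and silences satellite repeats, transposons and clustered gene families, among them the genes of KRAB zinc finger proteins, which themselves guide SETDB1 to DNA through KAP1. In muscle, genes of other lineages and clusters of receptors used in sensory tissue are typical places where silent chromatin is found.

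Each list had been called separately, with no read totals, so sequencing depth is unknown and a peak count is a count of what was called. The lists held 44 to 69 X-linked and 28 to 40 Y-linked peaks in vhl-/- and 99 to 182 X-linked and 7 to 10 Y-linked peaks in mfn2-/- libraries. The labels used here give no sex, strain or litter for the mice. In lists of H3K27me3, the other mark of the series, 1016 to 1105 peaks were X-linked in mfn2-/- and 10 to 12 in vhl-/- libraries. Only autosomes are compared here. The part that sex, strain or litter may have in the autosomal values was not tested, and without labels it cannot be told apart from genotype. None of the 6 lists had an autosomal peak assigned to Mfn2, Vhl, Hif1a, Nfatc2 or Myh8, so the lists hold no check of the deleted genes. The 20 myofiber genes examined (among them Acta1, Ckm, Ttn and Myh4) had 0 peaks in all 6 lists. Of 19 marker genes of other cell types, Dcn, Col3a1 and Tek had 1 peak each, in 1 library each. Over all RefSeq autosomal protein-coding genes, 7.61% had a peak in at least 1 of the 6 lists, so lists this short cannot show that myofiber genes are spared.

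RefSeq start windows, 250 bases before to 50 bases after an annotated start, were touched by few of these peaks, and more often in vhl-/- lists. Of 25748 genes with such a window, peaks reached 5, 2 and 6 in mfn2-/- libraries and 14, 13 and 13 in vhl-/- libraries, groups that did not overlap. These small counts are for the full lists only, and the vhl-/- lists also covered more sequence. All 4 windows that overlapped a region found in every vhl-/- and no mfn2-/- library are shown here, because they are the gene starts at which such a region lay. They belong to A530040E14Rik (chr1:85105843-85106142) and A530032D15Rik (chr1:85109804-85110103, minus strand), which are uncharacterized genes next to the Sp100 family, to Ugt1a1 (chr1:88211709-88212008), which encodes the enzyme that conjugates bilirubin, and to the predicted gene Gm52033 (chr13:66714723-66715022). Sequences are RefSeq, GRCm38.p6, in the direction of the gene, with CpG dinucleotides, the sites of DNA methylation, in capitals.
A530040E14Rik: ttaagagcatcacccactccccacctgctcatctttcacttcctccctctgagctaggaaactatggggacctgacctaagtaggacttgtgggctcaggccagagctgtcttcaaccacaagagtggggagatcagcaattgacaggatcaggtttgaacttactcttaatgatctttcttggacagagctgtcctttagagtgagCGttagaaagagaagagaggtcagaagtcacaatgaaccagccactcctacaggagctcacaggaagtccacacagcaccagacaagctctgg
A530032D15Rik: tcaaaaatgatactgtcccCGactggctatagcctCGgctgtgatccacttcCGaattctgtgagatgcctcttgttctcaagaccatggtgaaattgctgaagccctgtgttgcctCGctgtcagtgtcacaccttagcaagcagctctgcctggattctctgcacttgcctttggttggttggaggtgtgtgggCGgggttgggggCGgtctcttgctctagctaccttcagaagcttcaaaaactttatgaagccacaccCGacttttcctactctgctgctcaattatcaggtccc
Ugt1a1: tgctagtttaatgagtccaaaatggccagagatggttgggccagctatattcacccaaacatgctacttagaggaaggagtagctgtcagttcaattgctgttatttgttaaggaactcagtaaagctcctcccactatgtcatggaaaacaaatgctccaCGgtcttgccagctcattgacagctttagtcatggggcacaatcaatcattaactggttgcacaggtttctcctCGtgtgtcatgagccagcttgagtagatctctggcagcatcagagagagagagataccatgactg
Gm52033: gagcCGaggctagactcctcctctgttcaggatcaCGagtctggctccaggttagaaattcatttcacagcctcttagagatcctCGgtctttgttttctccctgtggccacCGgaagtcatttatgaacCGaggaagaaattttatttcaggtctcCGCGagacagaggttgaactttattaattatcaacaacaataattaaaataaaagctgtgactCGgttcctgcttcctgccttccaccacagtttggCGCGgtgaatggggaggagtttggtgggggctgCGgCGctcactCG

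These windows held 1 (A530040E14Rik), 7 (A530032D15Rik), 2 (Ugt1a1) and 13 (Gm52033) CpG dinucleotides, compared with a median of 7 over 31396 autosomal windows. The A530032D15Rik window is a repeated sequence, with 90.9% of its 25-base words found in start windows of other genes, whereas for Ugt1a1 and A530040E14Rik that share was 0. The letters ACGTG, the core of the element bound by HIF1, were searched on both strands and occurred in 0 of the 4 windows and in 19.7% of all windows.

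The number of peaks did not separate the genotypes, but the length they covered did. The mfn2-/- lists held 1014, 780 and 1306 peaks and the vhl-/- lists 1039, 1122 and 1315, so the groups overlapped (ratio of geometric means 1.14, exact two-sided permutation p = 0.4, adjusted p = 0.45 over 9 tests). Covered length was 893, 719 and 938 kb in mfn2-/- and 971, 1075 and 1272 kb in vhl-/- libraries, without overlap (ratio 1.30, exact p = 0.1, adjusted p = 0.225). With 3 libraries against 3 an exact p cannot fall below 0.1, so no difference here can pass 0.05. Median peak width was 605 ± 22.2 bp in mfn2-/- and 626 ± 3.06 bp in vhl-/- lists (SD, n = 3 each; exact p = 0.2). When each list was reduced to its strongest 780 peaks, the length of the shortest list, covered length remained apart at 624 to 740 kb and 800 to 930 kb (exact p = 0.1), and median width was 621 ± 11.9 and 706 ± 55.9 bp.

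Peaks in introns made up a larger share of the mfn2-/- lists. The authors' annotation placed 22.7%, 24.9% and 24% of mfn2-/- peaks in introns and 14.3%, 16.2% and 15.1% of vhl-/- peaks. Every mfn2-/- library thus lay above every vhl-/- library, and the mean difference was -8.63 percentage points (vhl-/- minus mfn2-/-; exact p = 0.1, adjusted p = 0.225). Intergenic peaks showed the opposite order, at 53.7% to 59.3% in mfn2-/- and 61.5% to 64.2% in vhl-/- lists (difference 5.60 points, exact p = 0.1). The intergenic difference was 3.54 points (exact p = 0.2) with all chromosomes, 1.66 points (exact p = 0.4) when lists were brought to equal covered length, and 0.404 points (exact p = 1) when base pairs rather than peaks were counted. Promoter peaks, which the authors' classes extend to 3 kb from a transcript start, reached 11.8%, 14.0% and 10.8% in mfn2-/- and 16.7%, 13.9% and 13.8% in vhl-/- lists and overlapped (exact p = 0.3). Exon and UTR peaks were 6.69% ± 0.652 and 7.16% ± 0.310 (SD, n = 3 each; exact p = 0.3).

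At equal list length the intron difference was -9.06 points (exact p = 0.1), and the promoter shares no longer overlapped, at 12.7% to 14.0% in mfn2-/- and 15.9% to 17.9% in vhl-/- lists (3.68 points, exact p = 0.1). Promoter shares also separated at a score of at least 100 (5.37 points), at equal covered length (6.32 points), with all chromosomes (3.53 points), as a percent of base pairs (7.93 points) and within 1 kb of a start (1.38 points), each with an exact p of 0.1. In wild-type lists the intron share was 18.6% to 19.8%, and in HIF1dPA lists, from myofibers that express a HIF1α resistant to degradation, 16.0% to 16.5%. As counts rather than shares, intron peaks numbered 230, 194 and 314 in mfn2-/- and 149, 182 and 199 in vhl-/- libraries, which overlapped. They lay in 202, 155 and 256 genes in mfn2-/- and 121, 145 and 165 genes in vhl-/- libraries. The host transcripts had a median of 7.5, 7 and 8 introns in mfn2-/- and 5 in each vhl-/- library. Intron peaks were ordinary in strength, with median scores of 58.0 to 61.3 in mfn2-/- and 57.3 to 58.5 in vhl-/- lists, where the score is minus 10 times the log10 of the p-value from the peak caller and starts at 50.0.

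**Figure D1:**
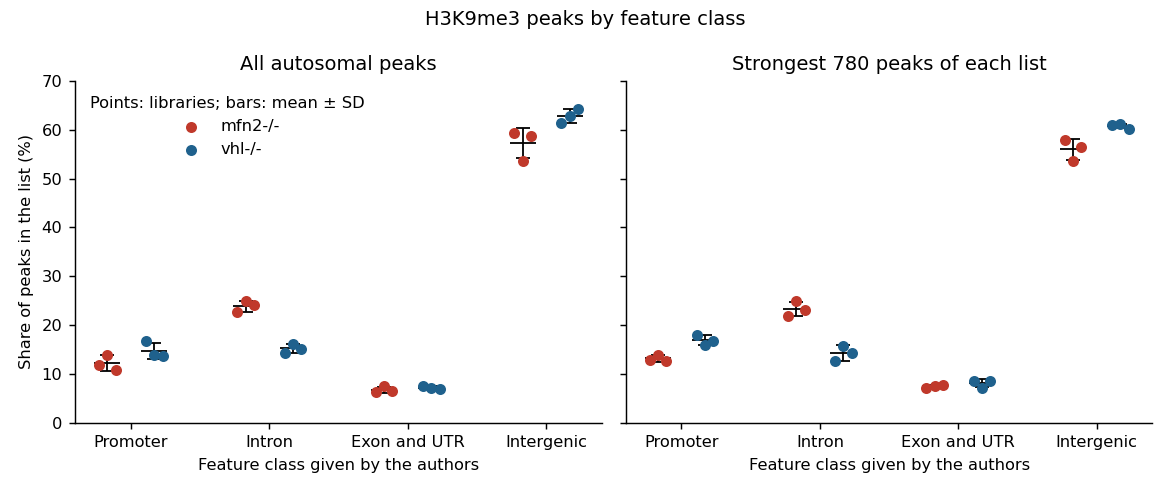
Share of H3K9me3 peaks (%, y axis) in each feature class of the authors (x axis) for all autosomal peaks and for the strongest 780 peaks of each list; points are libraries and bars the mean ± SD (n = 3). The mfn2-/- intron shares (22.7% to 24.9%) sit above all vhl-/- shares (14.3% to 16.2%), and the promoter shares overlap for all peaks and separate for the strongest 780.

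Few peaks of the promoter class touched a RefSeq start window, which is much narrower than the 3 kb reach of the class. Of 120, 109 and 141 promoter peaks in mfn2-/- and 173, 156 and 181 in vhl-/- lists, 4, 2 and 4 and 10, 9 and 7 touched a RefSeq start window. Of the promoter peaks, 43, 41 and 43 in mfn2-/- and 51, 48 and 51 in vhl-/- lists lay inside the RefSeq gene of their assigned symbol. Their median position was 64.0%, 73.7% and 72.3% of the gene's length from its start in mfn2-/- and 70.4%, 66.0% and 71.9% in vhl-/- libraries. Genes of zinc finger proteins showed the same in both genotypes, with peaks at a median of 78.4%, 80.7% and 78.6% of gene length in mfn2-/- and 78.5%, 76.7% and 76.4% in vhl-/- libraries. That is the end where the last exon encodes the array of zinc fingers. In all other genes these medians were 48.5% to 56.6% in mfn2-/- and 51.3% to 64.7% in vhl-/- libraries.

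By assigned gene, vhl-/- lists had a smaller share of peaks at protein-coding genes and larger shares at pseudogenes and gene segments. By RefSeq biotype, matched through the symbol (2373 of 2575 symbols), protein-coding genes took 64.2%, 64.7% and 62.5% of peaks in mfn2-/- and 55.1%, 54.8% and 55.5% in vhl-/- libraries. Pseudogenes took 12.6% to 14.9% in mfn2-/- and 18.9% to 19.8% in vhl-/-, and immunoglobulin and receptor segments 0.385% to 0.919% and 2.74% to 3.46%. Segment peaks numbered 36, 33 and 36 in vhl-/- lists. The immunoglobulin heavy chain window chr12:115000001-116000000 alone held 28, 30 and 27 vhl-/- peaks. Biotype shares without such clusters were not computed. Long non-coding RNA genes went the other way, at 4.93% to 5.51% in mfn2-/- and 1.73% to 3.21% in vhl-/- libraries. Symbols without a match held 8.96% to 9.62% and 13.7% to 14.5% of peaks, and these peaks have no biotype here.

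Lists of the same genotype resembled each other more than lists of different genotypes. Similarity was measured as the Jaccard index, which divides the bases common to both lists by the bases in at least 1 of them, and was 0.166, 0.127 and 0.139 within mfn2-/-, 0.180, 0.186 and 0.199 within vhl-/- and 0.0658 to 0.0934 for the 9 pairs between them. Within minus between was 0.0868 (exact p = 0.1, the smallest of 10 divisions; adjusted p = 0.225), and 0.103 at equal list length (exact p = 0.1). Most base pairs were nevertheless not shared by libraries of 1 genotype. Of the peaks of a library, 16.8% to 27.3% overlapped a peak of another mfn2-/- library and 21.5% to 29.0% a peak of another vhl-/- library.

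**Figure D2:**
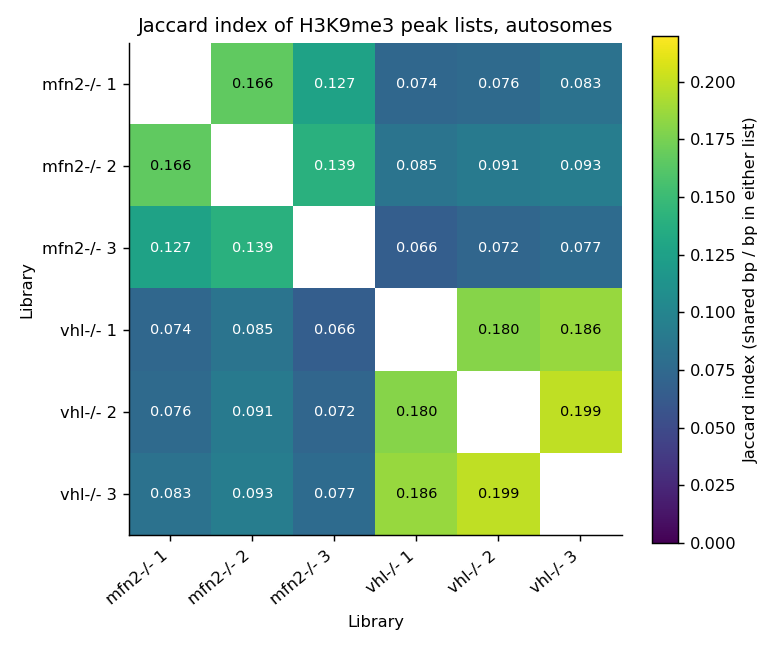
Jaccard index (shared base pairs over base pairs in either list, colour and printed value) for each pair of the 6 libraries, with libraries on both axes. The 3 pairs within mfn2-/- (0.127 to 0.166) and within vhl-/- (0.180 to 0.199) exceed all 9 pairs between them (0.0658 to 0.0934).

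Merging overlapping peaks gave 4904 regions, of which 4195 (85.5%) were held by 1 library. A region with a peak in all 3 libraries of a genotype and in none of the other is called an mfn2-/- or vhl-/- region here. There were 37 mfn2-/- regions (0.754% of 4904) and 80 vhl-/- regions (1.63%), against 47 regions in all 6 libraries. The median mfn2-/- region spanned 1686 bp, the median vhl-/- region 2024 bp and the median shared region 3004 bp. The median was 585 bp where 1 library held the region and 1247 bp where 2 or more did. A region is the union of its overlapping peaks, so regions held by more libraries tend to be longer by construction. With mfn2-/- library 1, 2 or 3 left out, and a peak thus asked of the remaining libraries only, there were 77, 77 and 65 mfn2-/- regions, and with vhl-/- library 1, 2 or 3 left out 142, 150 and 126 vhl-/- regions. At equal list length, 3353 merged regions held 32 mfn2-/- regions (0.954%), 67 vhl-/- regions (2%) and 41 shared regions. Of these, 28 of 32, 65 of 67 and 41 of 41 lay on regions with the same call at full length, which is 75.7%, 81.2% and 87.2% of the full-length calls.

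The strongest mfn2-/- region lay in the 3′ UTR of Slc30a4, a zinc transporter (chr2:122680931-122682727, mm10), with scores of 824, 698 and 924 and a mean score percentile of 99.6 within its lists. A peak was also present there in all 3 wild-type and in 1 HIF1dPA library. The next was in intron 15 of Drosha, the nuclease that starts microRNA processing (chr15:12872545-12873620, scores 169, 232 and 155), and was in no wild-type or HIF1dPA library. The same held for an intron 1 peak of Ppp2r2b, a regulatory subunit of protein phosphatase PP2A (scores 113, 147 and 188). A promoter peak of Smarca5-ps, a pseudogene of a chromatin remodeler (chr4:145462249-145463741), scored 86.7, 142 and 97.1. An intron 5 peak of Commd10 scored 78.4, 175 and 94.1, and an intergenic peak near Trim24, a chromatin reader (chr6:37848763-37849675), 91.4, 86.2 and 74.9.

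The rest of the 10 strongest mfn2-/- regions lay in gene clusters. They comprised Gm10354 (chr5:14993975-14998257, scores 138, 94.5 and 80.3), a pair of regions near Gm21847 (chr5:15459581-15466140 and chr5:15480821-15488588) and a region between Zfp979 and Zfp985 (chr4:147593733-147600140, scores 257, 159 and 63.5). All 4 were in 2 or 3 wild-type libraries, and those on chromosome 5 were in no HIF1dPA library. By chromosome, 8 of the 37 mfn2-/- regions were on chromosome 5, 6 on chromosome 10 and 5 on chromosome 4. At equal length, promoter peaks of Gm10330 (chr12:23780354-23782881) and a region near Zfp873 (chr10:82006399-82010101) joined the strongest 5.

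The strongest vhl-/- region was intergenic near Ly6c2, a leukocyte surface antigen gene (chr15:75085149-75087539, scores 493, 612 and 402, percentile 99.5). A peak near Cbx3-ps1, a pseudogene of the HP1 gene Cbx3 (chr13:65907041-65908320), scored 301, 295 and 303. A promoter peak of Aida, an axin-binding protein (chr1:183299002-183299778), scored 196, 220 and 204. These 3 regions were in all wild-type and all HIF1dPA libraries, as was intron 1 of E030030I06Rik (chr10:22141965-22143194, scores 213, 187 and 150). The longest, at 14349 bp, covered the Ugt1a1 start shown above together with Mroh2a and Gm20528 (chr1:88210979-88225327, scores 163, 153 and 183). It was found in 3 wild-type and 1 HIF1dPA library.

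Others of the strongest 10 vhl-/- regions clustered on chromosomes 13 and 1. Near Zfp640 (chr13:66695820-66701867, scores 218, 149 and 189) and Gm26639 (chr13:65620669-65622795, scores 371, 138 and 123), no wild-type and all 3 HIF1dPA libraries had a peak. A pair of regions near Rybp-ps, a pseudogene of the Polycomb gene Rybp, lay at chr13:66003654-66006817 and chr13:66038984-66042491. A region at A530032D15Rik (chr1:85097187-85106713, scores 172, 187 and 170) covers the A530040E14Rik start. In total 33 of 80 vhl-/- regions were on chromosome 13 and 15 on chromosome 1, with 6 on chromosome 12. At equal length the first of the vhl-/- regions was another one assigned to Zfp640 (chr13:66668874-66678690, scores 952, 863 and 699).

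Regions held by all 6 libraries included the strongest peaks of the lists. Gm5614 (chr9:35304774-35305905) scored 578, 919 and 1927 in mfn2-/- and 836, 753 and 714 in vhl-/- libraries. Neighbouring Gm10801 and Gm10800 regions (chr2:98661690-98665630 and chr2:98665826-98667831) reached 3100 and 2741 in mfn2-/- library 3, the highest of the 6 libraries in both. At Zfp998 (chr13:66425634-66439104), which encodes a zinc finger protein, the vhl-/- scores of 985, 1009 and 856 all exceeded the mfn2-/- scores of 561, 457 and 463. The reverse held near 2010315B03Rik (chr9:124256120-124258437), at 1259, 1110 and 1347 in mfn2-/- and 208, 303 and 389 in vhl-/- libraries. Scores grow with depth, which is unknown, and these differences in score were not tested. The other members of the strongest 10 were Gm9075, an intron of Chl1, a neural adhesion molecule, Zfp985, 2210408I21Rik and Pisd-ps1, and of the 47 shared regions 15 were on chromosome 4 and 10 on chromosome 13. HIF1dPA lists of H3K27me3, with only 474 to 496 autosomal peaks, had a peak in 8 of the 47 (17.0%), and all 3 had one in 6. Of the 709 regions held by 2 or more libraries, 1.69% had such a peak. Whether signal at the shared regions depends on the antibody was not tested, and no artifact regions were removed here.

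Lists of the other genotypes, which had no part in choosing the regions, held the 2 sets unequally. Of 80 vhl-/- regions, 78 (97.5%) had a peak in at least 1 HIF1dPA library and 50 (62.5%) in all 3, compared with 14 (37.8%) and 0 of the 37 mfn2-/- regions. In wild-type libraries the shares were closer, with 45 vhl-/- regions (56.2%) and 23 mfn2-/- regions (62.2%) in at least 1, and 36 (45.0%) and 12 (32.4%) in all 3. Of regions held by 1 library, 13.2% were found in a wild-type and 10.3% in an HIF1dPA list. Of regions held by 2 or more libraries, 61.9% were in at least 1 wild-type and 64.9% in at least 1 HIF1dPA list. In all 3 lists these shares were 28.1% for wild-type and 22.7% for HIF1dPA. Wild-type lists were the longest, at 2176 to 2407 autosomal peaks, against 1141 to 1588 in HIF1dPA lists. HIF1dPA H3K9me3 lists held 59 to 77 X-linked and 32 to 44 Y-linked peaks, nearer to the vhl-/- than to the mfn2-/- lists. Wild-type lists held 694 to 762 and 15 to 19. The part that sex, strain or litter may have in the overlap with HIF1dPA lists was not tested. H3K27me3 is the Polycomb mark. Its autosomal lists held 2342 to 2574 peaks in mfn2-/- and 3626 to 4023 in vhl-/- libraries. Of mfn2-/- regions, 2 (5.41%) had an H3K27me3 peak in an mfn2-/- library and 0 in a vhl-/- library. Of vhl-/- regions, 8 (10%) had one in a vhl-/- and 0 in an mfn2-/- library. In each set, 1 region had one in all 3 libraries of its genotype. Of the 47 shared regions, 19.1% had one in an mfn2-/- and 14.9% in a vhl-/- library. Of the 709 regions held by 2 or more libraries, 2.54% had one in an mfn2-/- and 2.54% in a vhl-/- library, and of regions held by 1 library 0.215% and 0.238%.

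**Figure D3:**
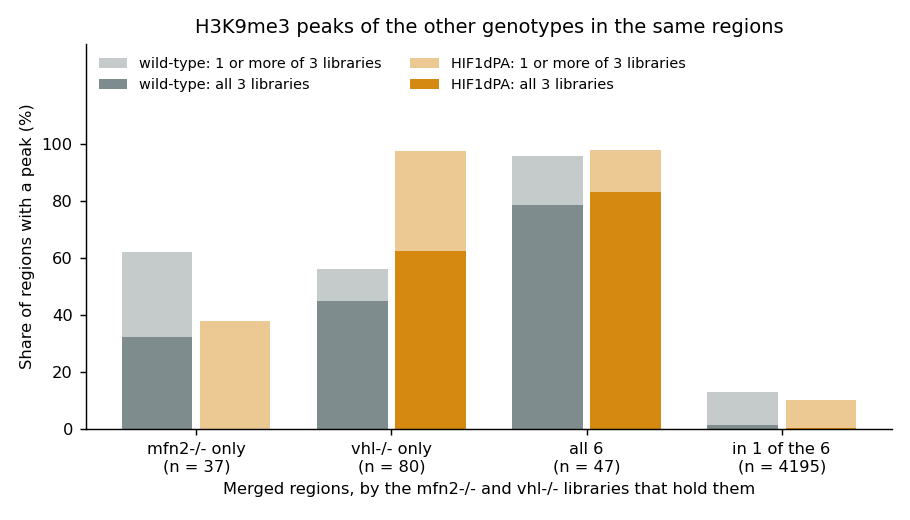
Share of merged regions (%, y axis) with an H3K9me3 peak in wild-type or HIF1dPA libraries, for mfn2-/-, vhl-/-, shared and single-library regions (x axis, number of regions in brackets); pale bars are 1 or more of 3 libraries and dark bars all 3. HIF1dPA lists held 97.5% of vhl-/- and 37.8% of mfn2-/- regions, whereas wild-type lists held 56.2% and 62.2%.

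Peaks were distributed differently over the chromosomes. On chromosome 13, the vhl-/- lists had 19.2%, 18.6% and 17.2% of their autosomal peaks and the mfn2-/- lists 7.10%, 6.54% and 7.50%. On chromosome 7 the shares were 9.43%, 10.4% and 10.5% in vhl-/- and 3.75%, 3.21% and 3.91% in mfn2-/- libraries, and on chromosome 1 they were 8.08%, 7.31% and 7.98% and 3.45%, 2.31% and 4.67%. Chromosomes 15 and 10 were the reverse, at 6.11%, 6.54% and 7.96% of mfn2-/- and 1.25%, 1.25% and 0.913% of vhl-/- peaks for chromosome 15, and at 10.2%, 8.97% and 8.88% and 3.95%, 3.21% and 3.88% for chromosome 10. In all, 10 of 19 chromosomes did not overlap, with chromosome 14 also higher in vhl-/- and chromosomes 3, 8, 11 and 16 higher in mfn2-/- lists (each exact p = 0.1, adjusted p = 0.19 over 19 tests). At equal list length chromosome 14 overlapped and chromosomes 17 and 19 did not, both higher in mfn2-/- lists, which made 11 in all. Shares of 1 list depend on each other, so a high share on chromosome 13 lowers the rest. As counts in the full lists, chromosomes 3, 11, 14 and 16 overlapped, and chromosomes 1, 7, 8, 10, 13 and 15 did not. On chromosome 3 the counts were 72, 45 and 91 in mfn2-/- and 47, 33 and 53 in vhl-/- lists. HIF1dPA lists had 15.6% to 17.4% of peaks on chromosome 13 and wild-type lists 6.02% to 6.39%. On chromosome 15 both were low, at 1.39% to 1.69% and 1.38% to 1.70%.

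**Figure D4:**
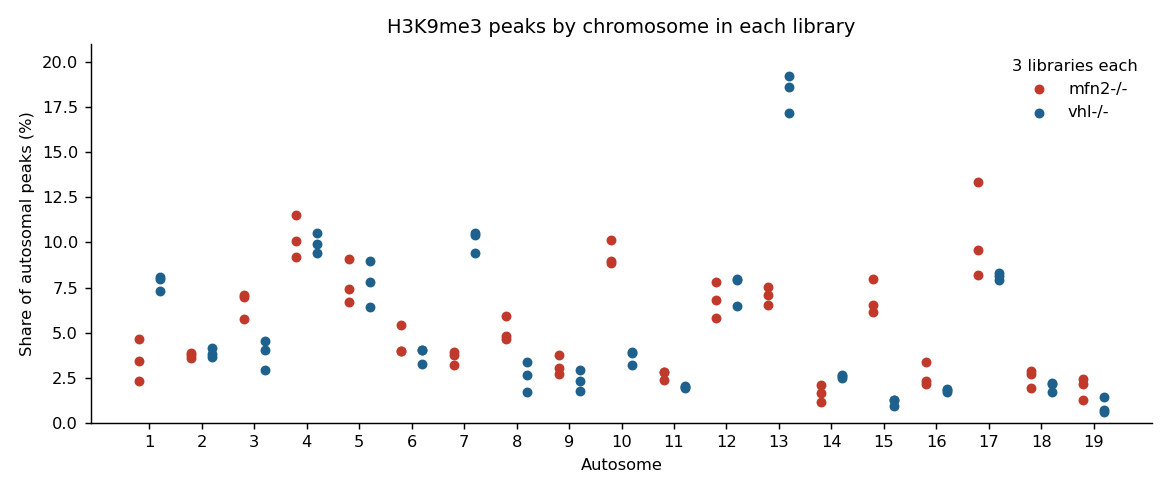
Share of autosomal H3K9me3 peaks (%, y axis) on each autosome (x axis) in the 3 mfn2-/- and 3 vhl-/- libraries, 1 point per library. The vhl-/- points stand at 17.2% to 19.2% on chromosome 13, far above the mfn2-/- points, while chromosomes 10 and 15 are higher in all mfn2-/- libraries.

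The chromosome 13 excess was local and the chromosome 15 excess was spread out. On chromosome 15 the 62, 51 and 104 mfn2-/- peaks fell into 38, 32 and 52 windows of 1 Mb, and the 13, 14 and 12 vhl-/- peaks into 13, 13 and 11. On chromosome 13 the vhl-/- lists had 200, 209 and 226 peaks in 24, 23 and 25 windows, and the mfn2-/- lists 72, 51 and 98 peaks in 21, 14 and 40. Windows were examined after the chromosome shares had been seen. Of 1447 windows of 1 Mb with a peak in the 6 lists, 50 (3.46%) had more peaks in every vhl-/- than in any mfn2-/- library and 43 (2.97%) the reverse. Of the 43 windows higher in mfn2-/- lists, 11 were on chromosome 15 and 8 on chromosome 10, and of the 50 higher in vhl-/- lists 9 were on chromosome 7 and 7 on chromosome 13.

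In 11 windows the mean difference was 10 peaks or more. The largest spans chr13:66000001-67000000 with Zfp640 and Zfp998, where mfn2-/- libraries had 15, 11 and 11 peaks and vhl-/- libraries 75, 69 and 78. Beside it, chr13:65000001-66000000, with Gm26639 and Rybp-ps, had 20, 20 and 24 against 53, 51 and 61. Wild-type libraries were near the mfn2-/- level in both (12 to 17 and 16 to 23 peaks), and HIF1dPA libraries near the vhl-/- level (68 to 87 and 58 to 67). The third window of this chromosome, with Zfp808, had 10, 4 and 6 against 24, 26 and 31 peaks, with 13, 19 and 25 in wild-type and 23, 30 and 20 in HIF1dPA lists.

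Around the Sp100 family, whose proteins form nuclear bodies, chr1:85000001-86000000 had 0 peaks in all 3 mfn2-/- lists and 34, 32 and 35 in vhl-/- lists, covering 112, 119 and 110 kb. Wild-type lists had 65 to 81 peaks there and HIF1dPA lists 24 to 42. In chr12:115000001-116000000, which holds variable segments of the immunoglobulin heavy chain such as Ighv8-12, mfn2-/- lists had 0, 1 and 1 and vhl-/- lists 28, 30 and 27 peaks. Wild-type lists had 1 to 4 there and HIF1dPA lists 35 to 43. The window of Gm6205 and Pramel41, of the PRAME-like family, had 1, 0 and 0 against 12, 7 and 27 peaks on chromosome 5, and smaller gaps were found at Platr16 on chromosome 4 (23, 28 and 27 against 31, 37 and 43, no longer apart at equal list length), Thoc2l on chromosome 5 and vomeronasal Vmn2r-ps46 on chromosome 7.

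Mean differences of 10 or more in favour of mfn2-/- occurred in 2 windows. In chr5:15000001-16000000, with Gm21847 and Gm17019 next to the Speer genes, mfn2-/- lists had 12, 19 and 14 peaks and vhl-/- lists 0 in all 3. Wild-type lists had 17 to 20 peaks there, and HIF1dPA lists 0 to 1. In chr10:82000001-83000000, with AU041133 and Zfp873, mfn2-/- lists had 28, 24 and 25 and vhl-/- lists 11, 8 and 15 peaks. Wild-type lists had 20 to 23 there, and HIF1dPA lists 21, 8 and 9.

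The 9 windows higher in vhl-/- lists held 27%, 24.5% and 25.6% of vhl-/- peaks and 7.20%, 8.72% and 6.28% of mfn2-/- peaks. Outside all 11 windows, which were chosen for their difference, the vhl-/- to mfn2-/- ratio was 0.968 for covered length (exact p = 0.9) and 0.945 for peak number (exact p = 0.9). The intron share outside them was 24.7% ± 0.985 in mfn2-/- and 17.2% ± 0.965 in vhl-/- lists (SD, n = 3 each; exact p = 0.1). Leaving out instead the 10 chromosomes that did not overlap gave 24% ± 0.596 and 15.8% ± 1.96 (exact p = 0.1). The similarity difference fell to 0.0414 outside the 11 windows (exact p = 0.1).

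**Figure D5:**
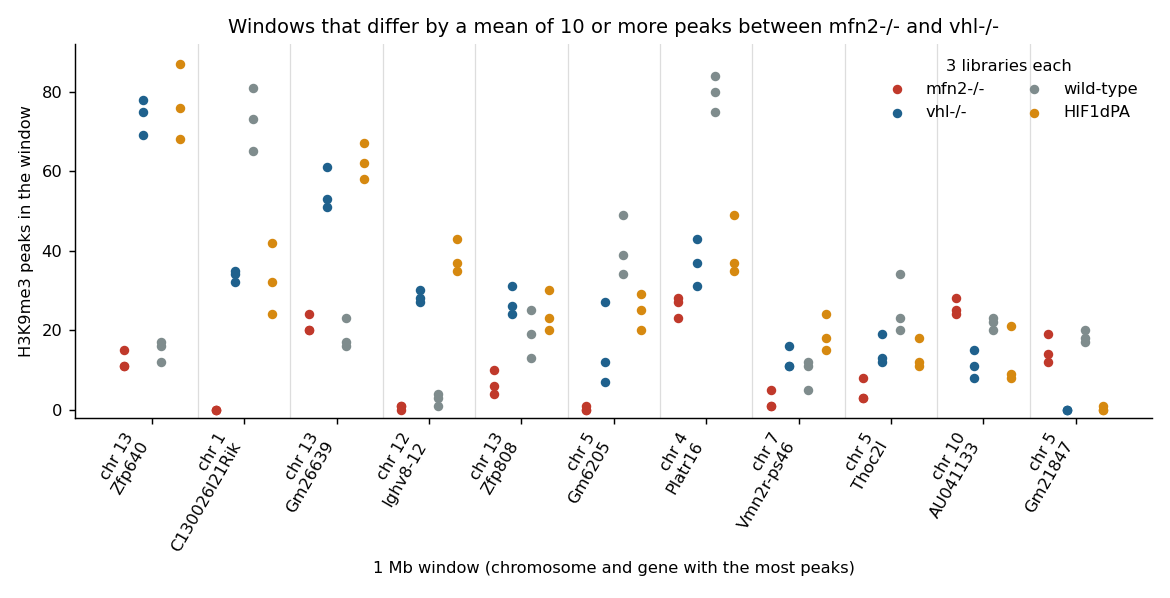
Number of H3K9me3 peaks (y axis) in each of the 11 windows of 1 Mb with a mean difference of 10 or more between mfn2-/- and vhl-/- libraries (x axis, chromosome and gene with the most peaks); 1 point per library, with wild-type and HIF1dPA libraries beside them. At Zfp640 and Gm26639 the vhl-/- and HIF1dPA points are high and the mfn2-/- and wild-type points low, whereas at Gm21847 the mfn2-/- and wild-type points are high and the vhl-/- points at 0.

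By assigned gene, 2575 genes had a peak in the 6 lists. Of these, 36 (1.4%) had one in every mfn2-/- and no vhl-/- library, 65 (2.52%) the reverse, and 86 had one in all 6. At equal length the counts were 32 (1.68%) and 45 (2.36%) of 1906, and Zfp640 had the most peaks of the 45 vhl-/- genes. Genes of a cluster share their windows and are not independent. The mfn2-/- genes with the most peaks were Gm21847 (7, 10 and 7 peaks), Gm17019 (5, 6 and 5), 9230019H11Rik (4, 2 and 5), Gm10354 (2, 3 and 4), Gm25976 (4, 3 and 1) and Gm15446 (2, 2 and 3), followed by Defa21, a Paneth cell defensin, and the zinc finger gene Zfp932 (2 in each library). The remaining genes of the first 10 were Gm9758 (3, 2 and 1) and Ext1 (2, 2 and 1), which encodes an enzyme of heparan sulfate synthesis.

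The vhl-/- genes with the most peaks were C130026I21Rik, in the window of Sp140 (10, 8 and 11 peaks), Gm6205 (6, 2 and 6), Gm12892 (2, 5 and 6), A530032D15Rik (3, 5 and 3), Gm6367 (1, 3 and 7), Ighv8-12 (2, 5 and 4), Gm3183 (2, 2 and 6), Gm6264 (2, 4 and 3), Sp140, a chromatin reader of immune cells (4, 2 and 3), and Ighv1-55 (2, 3 and 3). Among genes in all 6 libraries, Gm26639 had 8, 7 and 6 peaks in mfn2-/- and 17, 21 and 22 in vhl-/- lists, and Zfp998 had 4, 7 and 4 and 17, 13 and 23. Zfp808 had 4, 1 and 2 and 11, 13 and 17. In the other direction, AU041133 had 11, 8 and 9 peaks in mfn2-/- and 4, 1 and 6 in vhl-/- lists and Zfp985 had 7, 10 and 8 and 4, 5 and 5. The groups did not overlap for these 5 genes. Among the rest of the first 10, Gm10139 (7, 9 and 5 and 10, 10 and 14 peaks) and Gm26806 (7, 1 and 5 and 9, 12 and 10) were also higher in every vhl-/- library, although Gm10139 overlapped at equal length (7, 9 and 5 and 8, 8 and 11). Leaving out mfn2-/- library 1, 2 or 3 gave 82, 114 and 66 mfn2-/- genes, and leaving out vhl-/- library 1, 2 or 3 gave 116, 112 and 104 vhl-/- genes.

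Many zinc finger genes were marked in both genotypes. Of 132 with a peak, 34 (25.8%) had one in all 6 libraries, compared with 86 of all 2575 genes, while only Zfp932 was in the mfn2-/- and only Zfp810 in the vhl-/- set at full length (0.758% each, against 1.4% and 2.52% of all genes). At equal length Zfp955b (2, 1 and 2 peaks) joined the former and Zfp640 the latter. Zfp640 had 1, 0 and 0 peaks in mfn2-/- and 34, 28 and 28 in vhl-/- lists at full length, and 0 in all mfn2-/- and 32, 27 and 25 in vhl-/- lists at equal length. Peaks assigned to the family numbered 154, 151 and 174 in mfn2-/- and 224, 213 and 234 in vhl-/- lists, without overlap, although the number of marked members was similar, at 72, 61 and 70 and 74, 73 and 72. As a share of each list, they overlapped (15.2%, 19.4% and 13.3% and 21.6%, 19% and 17.8%), and at equal length they did not (16.0% to 19.4% and 21.3% to 22.8%). Zfp979 (10, 6 and 7 and 10, 9 and 10 peaks), Zfp97 (7, 8 and 6 and 8, 6 and 9) and Zfp960 (6, 7 and 4 and 7, 6 and 7) were marked at like numbers in both genotypes.

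Vomeronasal and trace-amine receptor genes, which encode pheromone and amine receptors of sensory neurons, had 19, 16 and 26 peaks in mfn2-/- and 44, 64 and 86 in vhl-/- lists. Of 126 members with a peak, 0 were in the mfn2-/- set, where 1.4% of all genes were, and 7 (5.56%) in the vhl-/- set, where 2.52% were. Those 7 were led by Vmn2r-ps46 (2, 1 and 4 peaks), Vmn2r-ps15 (1, 3 and 1) and Vmn2r43 (2, 1 and 2). Olfactory receptor genes, the larger sensory family, had 9, 9 and 18 and 9, 16 and 18 peaks, which overlapped, and 1 of 66 members in the vhl-/- set. Genes of the Sp100 family had 0 peaks in mfn2-/- and 6, 2 and 3 in vhl-/- lists. Clustered protocadherin genes, which give neurons their surface identity, had 1, 0 and 2 peaks against 5, 6 and 3, but the numbers of marked genes (1, 0 and 2 against 3, 5 and 2) and the shares at equal length overlapped. Predicted gene models took 36.3% to 36.9% of mfn2-/- and 36.3% to 37.4% of vhl-/- peaks, with 12 (1.38%) and 24 (2.76%) of 869 members in the sets, close to the 1.4% and 2.52% of all genes.

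Of RefSeq autosomal protein-coding genes, 1573 of 20665 (7.61%) had a peak in at least 1 of the 6 lists. Of 30 HIF1 target genes, 3 had a peak. P4ha2, a subunit of collagen prolyl hydroxylase, had 1 in every vhl-/- and 0 in every mfn2-/- library, its relative P4ha1 had 1, 0 and 1 in mfn2-/- and 0 in vhl-/- lists, and Kdm3a, which removes H3K9 methylation, had 1 peak in mfn2-/- library 2. Of 20 writers, readers and erasers of H3K9 methylation, at any degree, 3 had a peak, Kdm3a among them. Setdb1, a methyltransferase, had 1 peak in mfn2-/- library 1, and Atf7ip, its partner, had 1 in mfn2-/- library 1 and 1 in vhl-/- library 1. Genes of mitochondrial dynamics and VHL had 0 peaks in all 6 lists, and of 12 myogenic regulators Eya1 had 1 peak, in mfn2-/- library 1. Of 39 imprinted genes 7 had a peak and 0 were in either set. Airn, the non-coding RNA that silences Igf2r, had 0, 2 and 1 peaks in mfn2-/- and 0 in vhl-/- lists, and Rasgrf1 0, 1 and 1 and 0. Small RNA genes had 3 to 6 peaks a list, cytochrome P450 genes 0 to 6, glucuronosyl- and sulfotransferase genes 0 to 5, natural killer lectin receptor genes 0 to 1, defensin, serpin and secretoglobin genes 4 to 7, and CEACAM, PSG and Speer genes 0 to 3, all overlapping between the genotypes in the full lists.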

How the data were processed

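ChIP-seq libraries of H3K9me3 from Dendra2+ regenerating myofibers at 14 dpi were assigned to 3 mfn2-/- and 3 vhl-/- libraries from genotype and antibody labels. The study gives 3 mice per group, and the labels number the replicates without naming an animal. The authors deposited 1 peak list a library, with intervals, an assigned gene, a feature class and a score, which is minus 10 times the log10 of the p-value from the peak caller. The submitters' processing notes name BWA 0.7.5, MACS, deepTools 3.5.0 and build mm10, and use of the input, duplicates and filters are not given in the sources used here. Scores run from 50.0 to 3100 and grow with depth, which is unknown, so no interval that needs depth was computed. The build was checked against RefSeq genes of GRCm38.p6. Of exon and UTR peaks 96.5%, of intron peaks 91.3% and of promoter peaks 64.2% touched the RefSeq gene of their symbol.

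Peaks on chromosomes 1 to 19 were kept, and regions were made by merging peaks that overlap by 1 bp. Equal length means the strongest 780 peaks. Libraries were compared by exact two-sided permutation tests (3 against 3, 20 arrangements). List similarity was instead tested in 1 direction over 10 divisions, where a larger within minus between value is more extreme. Benjamini-Hochberg adjustment was made over 9 tests at full length, 8 at equal length and 19 chromosomes. Separating regions and genes are counts without a test. Named regions are up to 10 a set by the highest mean score percentile, 5 at equal length, and named genes up to 10 a set by summed peaks. Members, lists and rules were chosen with earlier results of these data known, and the 1 Mb windows, biotypes, positions within genes and start windows were added after the data were seen. No pair of lists was identical, and no list repeated a position. Region calls and tests were tested on simulated data. Alternatives were a score of at least 100, equal list or covered length, joined peaks (1000 bp), all chromosomes, other definitions, a replicate block, and each library omitted in turn. Computation used Python 3.11.15 with pandas 2.3.3 and numpy 2.4.6, and plots matplotlib 3.10.9.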

Additional observations from a re-analysis of the deposited data

How the results depend on the processing

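The intron share stayed lower in vhl-/- lists under all 8 alternatives other than leaving out a library (-4.41 to -9.89 percentage points). Lists of 1 genotype stayed more alike under all 8 of theirs (0.0414 to 0.136). Each set of 8 includes the replicate block, which changes only the permutation and so keeps the value by construction. At a score of at least 100 there were 8 mfn2-/- and 28 vhl-/- regions, 15 shared regions, 6 mfn2-/- and 19 vhl-/- genes, and the exon and UTR difference turned to -7.49 points. The cause of that turn was not tested. It was -0.916 without the 10 chromosomes that did not overlap. The median score difference, -0.0433 in all, turned to 2.54 at equal list length, 10.4 at equal covered length and 0.547 with all chromosomes, and the causes were not tested. By construction the peak number ratio turned to 0.701 at equal covered length. There, 34 mfn2-/- and 32 vhl-/- genes were called, against 36 and 65 in the full lists, so the excess of vhl-/- genes was gone. Regions numbered 37 and 58 there, against 37 and 80 in the full lists. Outside the 11 windows, chosen for their difference, the peak number ratio was 0.945 and that of covered length 0.968. Requiring a library to cover at least 50% of a region left 21 mfn2-/- and 16 shared regions. With peaks in 2 of 3 libraries against 0, there were 141 mfn2-/- and 243 vhl-/- regions and 190 and 202 genes, and with promoter peaks only 4 and 16 genes.

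Leaving out 1 library at a time asks for fewer libraries, so more is called: 43 to 77 mfn2-/- and 84 to 150 vhl-/- regions, 47 to 59 shared regions, 41 to 114 mfn2-/- and 69 to 116 vhl-/- genes. The peak number ratio then ran from 1.00 to 1.30, that of covered length from 1.20 to 1.38, and the differences in intron share from -9.23 to -8.13, intergenic share from 3.84 to 6.62, promoter share from 1.63 to 3.46, exon and UTR share from 0.222 to 0.834, median width from 8.67 to 30.2 bp and similarity from 0.0751 to 0.0993. The median score difference turned, at -0.658 to 0.932 (0.932 without mfn2-/- replicate 2 and 0.235 without vhl-/- replicate 2). With the replicate block the values are the same (intron share -8.63 points) and the smallest exact p is 0.25, so no paired test can pass 0.05. Same-numbered libraries did not deviate together over 709 regions (correlations -0.0270 to -0.0120), and the labels do not say what a number shares, so the numbers were not used to pair libraries. Depth is not known, which limits every comparison of counts and scores between libraries.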
